A study of Mus musculus with 16 samples.

Results

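The 34 genes described here are markers of macrophages and other leukocytes, measured in cultured mouse ovarian follicles. They were taken as a list by gene name, chosen with earlier results of these data known. The list held 8 pan-leukocyte genes, 9 macrophage surface receptors, the 3 chains of complement C1q and 4 Fc receptor and ITAM adapter genes. It also held 4 genes of MHC class II, 5 lysosomal, oxidase and cytoplasmic effectors, and the transcription factor Spi1. Each gene was read from the probe set annotated to it that had the highest mean over 16 arrays. All 34 had such a probe set, among 18193 genes on the array with a probe set of their own, and 22 of them lay over the filter on low signal that left 12172 genes for testing.

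Follicles were dissected from the ovaries of C57BL/6Tac mice labelled as 8 weeks old and were cultured without or with anti-Müllerian hormone (AMH), a product of the granulosa cells of growing follicles, added as recombinant protein at 50 ng/ml. All cultures, controls included, also contained FSH at 80 IU/L and LH at 10 IU/L. The 4 groups were control and AMH-treated follicles at 12 h and control and AMH-treated follicles at 24 h, with 4 arrays each. For each experiment the follicles of 8 mice were pooled and divided between both arms, so that an AMH array and a control array with the same number at one time form a pair. Each array was made from 5 ng of RNA of 6 to 9 follicles. The labels do not say that the 12 h and 24 h cultures of one number share a pool. The times were therefore compared with no term for the pool, so that differences between pools remain in that comparison. A whole follicle holds oocyte, granulosa, theca and some surrounding tissue, and in such bulk RNA fewer cells of a type and less RNA per cell cannot be told apart.

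Macrophages are the most abundant leukocytes of the ovary and lie in the stroma and theca around the follicle, outside the basement membrane that encloses the granulosa layer. They depend on signals through the CSF1 receptor, take up antibody-coated and dying material through Fc and complement receptors, digest it with lysosomal proteases, and show peptides to T cells on MHC class II. The transcription factor PU.1, the product of Spi1, is needed for the myeloid lineage and binds purine-rich sites at many of its genes.

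The promoters of 24 of the 34 genes were in RefSeq's table for GRCm38.p6 (windows of 300 bases, 250 before and 50 after each start). They are shown because 13 of these 24 genes held the PU.1 core GAGGAA on either strand, where 31.3% of the 27025 genes with a window did. Below are 220 bases, from 200 before to 20 after the start, of 4 genes, printed 5′ to 3′ on the gene's strand with GAGGAA or its reverse complement TTCCTC in capitals. The Ctss stretch lies at chr3:95526586-95526805 on the plus strand and the Cd53 stretch at chr3:106790130-106790349 on the minus strand. The Laptm5 stretch lies at chr4:130913116-130913335 on the plus strand and the C1qb stretch at chr4:136886181-136886400 on the minus strand.
Ctss: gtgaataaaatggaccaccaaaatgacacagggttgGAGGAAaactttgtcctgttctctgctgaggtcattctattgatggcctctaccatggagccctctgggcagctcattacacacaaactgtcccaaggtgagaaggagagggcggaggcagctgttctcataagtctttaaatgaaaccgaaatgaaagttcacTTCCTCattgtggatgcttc
Cd53: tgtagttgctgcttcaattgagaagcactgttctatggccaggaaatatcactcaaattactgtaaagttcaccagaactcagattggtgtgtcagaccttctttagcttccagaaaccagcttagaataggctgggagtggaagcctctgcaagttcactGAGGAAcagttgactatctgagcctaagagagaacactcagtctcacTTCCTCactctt
Laptm5: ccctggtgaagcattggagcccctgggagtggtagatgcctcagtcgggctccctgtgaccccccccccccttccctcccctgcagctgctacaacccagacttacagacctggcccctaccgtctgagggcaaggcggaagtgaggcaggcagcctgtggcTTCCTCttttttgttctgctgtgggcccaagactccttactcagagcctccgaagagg
C1qb: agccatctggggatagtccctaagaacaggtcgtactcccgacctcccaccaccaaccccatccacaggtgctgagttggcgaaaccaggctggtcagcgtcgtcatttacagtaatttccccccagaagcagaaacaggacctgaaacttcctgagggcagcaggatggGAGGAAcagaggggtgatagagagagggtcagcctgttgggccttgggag
The 4 were picked because they held a match and belonged to 8 genes, described further on, whose levels ran closely together over the arrays; of the other genes of that set with a window, Fcer1g, Lyz2 and H2-Aa held no match. Ctss and Cd53 each held 2 matches in the stretch shown, and Laptm5 and C1qb each held 1. The other genes with a match were Ptprc, Cd68, Itgam, Mrc1, Ms4a7, C1qc, Fcgr3, Cybb and Aif1. A match in these letters is a description of the window and says nothing of whether PU.1 was bound.

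The deposited signals were scaled to one trimmed mean, 150.001 on each of the 16 arrays, and the median signal of an array ranged from 27.8 to 40.2. Arrays of one group correlated at 0.923 to 0.977 over the 12172 genes that passed the filter. Values below are log2(signal + 1.46), the added offset being the 10th percentile of all signals; differences on this scale understate the change of dim genes. The filter kept genes whose mean reached 4.18 on this scale, a signal of about 16.6. Tests were made with limma over all 12172 genes, with Benjamini-Hochberg adjustment and a threshold of 0.05. The number of arrays, 4 in a group, limits the precision.

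Several genes that define macrophages had low signals, under the filter. The 12 genes under the filter were Ptprc (CD45), Cd48, Coro1a, the receptors Adgre1 (F4/80), Cx3cr1, Itgam (CD11b) and Cd163, the C1q chain C1qa, the MHC class II chain H2-Eb1, the oxidase subunit Cybb, Aif1 (IBA1) and Spi1 (PU.1). Their mean signals ranged from 3.11 for Itgam to 17.9 for C1qa, whose mean on the log2 scale, 4.13, lay just under the filter. Spi1 itself had a mean signal of 9.72, Adgre1 of 6.39 and Ptprc of 8.10. The macrophage label therefore rested in these arrays on the 22 brighter genes, with several of the usual defining receptors under the filter. Markers of other leukocytes were sparse as well, counted among those with a probe set. Of T cell markers 1 of 10 (Cd247) and of B cell markers 2 of 8 (Ms4a1 and Ighm) were over the filter. So were 1 of 7 NK and cytotoxic cell markers (Prf1) and 1 of 9 neutrophil markers (Camp). Of dendritic cell markers 2 of 7 (Itgax and Zbtb46) were over it, and of mast cell markers 0 of 7. Among all genes with a probe set of their own, 12172 of 18193 were over the filter. Of a wider list of 57 macrophage and myeloid genes, 48 had a probe set and 20 were over the filter.

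**Figure D1:**
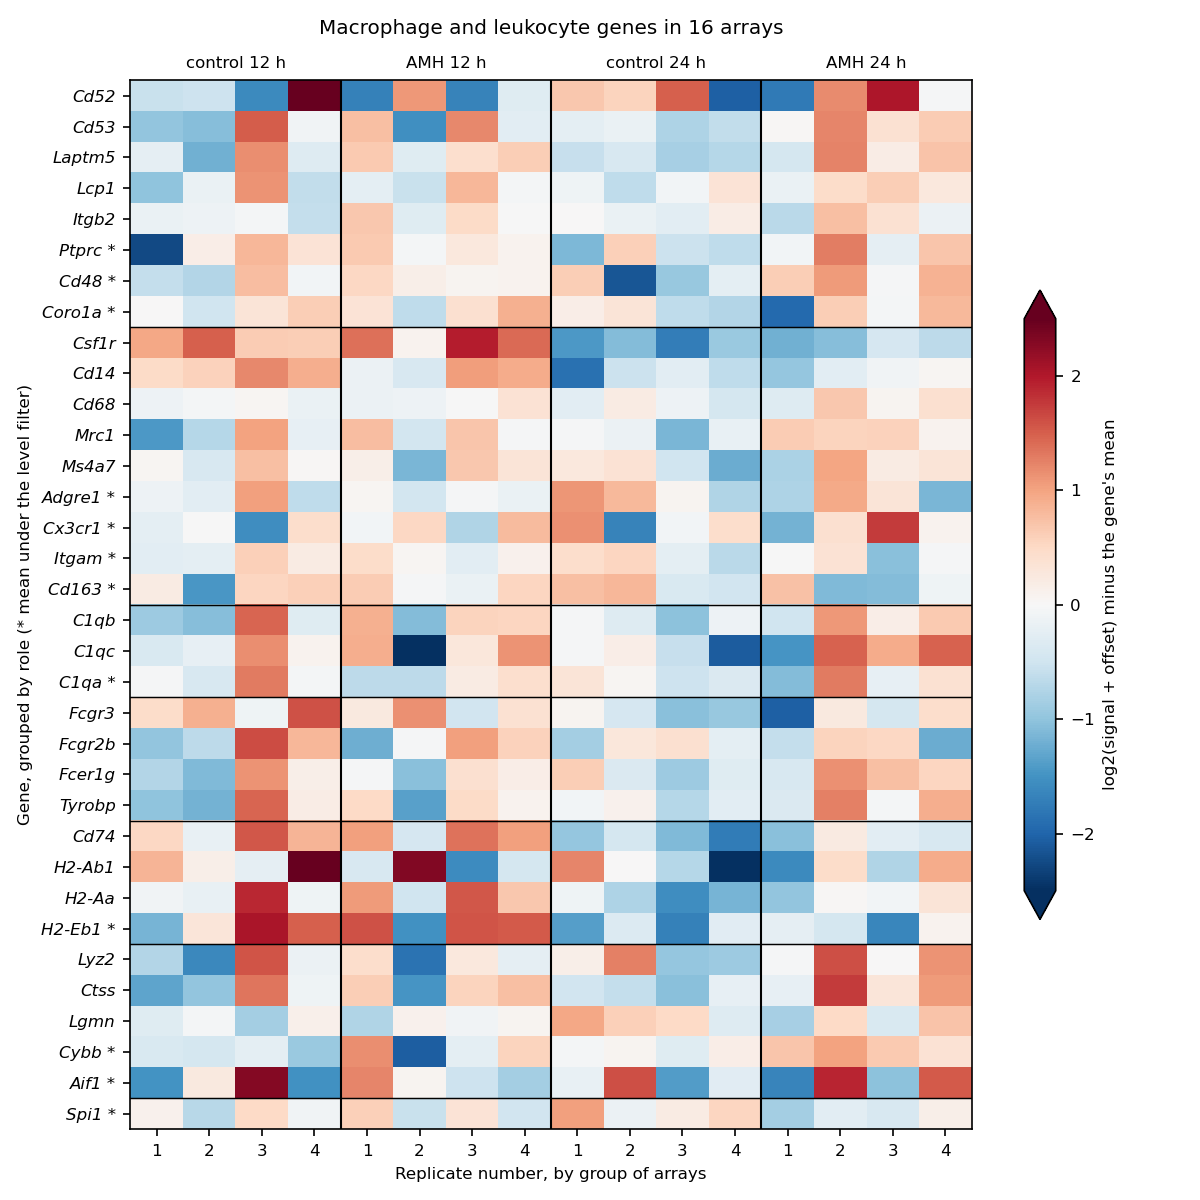
Each row is a gene and each column an array; colour is log2(signal + offset) minus the gene's mean over 16 arrays, from -2.5 to 2.5, with genes grouped by role and those under the level filter starred. Csf1r is high in 12 h columns and low in 24 h columns, and the column of control 12 h replicate 3 is high for most other genes.

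Between 12 h and 24 h of culture the clearest change was in Csf1r, the receptor for CSF1 and IL34, whose level fell in both arms. In control follicles 3 of the 22 genes fell past the threshold, Csf1r, Cd74 and Cd14, and 0 rose, where 9.19% of all genes fell and 9.96% rose. In AMH-treated follicles 1 of 22 fell, Csf1r, and 0 rose, where 3.94% of all genes fell and 4.34% rose.

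Csf1r read 8.03, 8.57, 7.70 and 7.69 in the 4 control arrays at 12 h and 5.63, 5.98, 5.33 and 6.13 in the 4 control arrays at 24 h. With AMH it read 8.45, 7.15, 9.03 and 8.49 at 12 h and 5.87, 6.01, 6.65 and 6.41 at 24 h. Each of the 8 arrays at 12 h lay above each of the 8 arrays at 24 h, and the lowest 12 h value was AMH replicate 2. The group means were 8.00 ± 0.41 and 8.28 ± 0.80 at 12 h and 5.77 ± 0.36 and 6.23 ± 0.36 at 24 h (SD, n = 4). The change was -2.23 in control follicles (SE 0.33, adjusted p = 0.000379), 4.68-fold lower at 24 h, and -2.05 in AMH-treated follicles (SE 0.33, adjusted p = 0.00154), 4.13-fold lower. The difference between both changes was 0.18 (SE 0.52, adjusted p = 0.988 in the fit with pairs).

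The array carries 3 probe sets for Csf1r. The chosen one differed by -2.23 in controls and -2.05 with AMH, the second by -1.81 and -1.55, and the third by -1.07 and -0.78. Their levels ran together over the arrays once group means were removed, with pairwise correlations of 0.77 to 0.82. The second probe set kept both times apart in control follicles, with its lowest 12 h value 5.49 and its highest 24 h value 4.65. The third did not: its ranges met at 4.99 in controls, and with AMH its lowest 12 h value, 4.20, lay below its highest 24 h value, 4.96. Of the ligands, Csf1 was over the filter and Il34 was not, and Csf1 differed by -0.18 in controls (adjusted p = 0.709) and 0.07 with AMH (adjusted p = 0.923).

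Cd74 encodes the invariant chain, which holds the peptide groove of MHC class II molecules until they reach the endosome. It read 6.20, 5.48, 7.23 and 6.52 in controls at 12 h and 4.71, 5.24, 4.58 and 3.93 in controls at 24 h. The ranges did not overlap, by a margin of 5.48 against 5.24. The change was -1.74 (SE 0.42, adjusted p = 0.00899), 3.35-fold lower at 24 h. Without replicate 3 it was -1.44 (adjusted p = 0.0756) and without replicate 4 it was -1.46 (adjusted p = 0.0799), so that the call rested on both. With AMH, Cd74 read 6.69, 5.26, 7.03 and 6.70 at 12 h and 4.63, 5.90, 5.42 and 5.27 at 24 h, where the ranges overlapped through AMH 12 h replicate 2. That change was -1.12 (SE 0.42, adjusted p = 0.111). Without replicate 2 Cd74 also passed in AMH-treated follicles, and 2 genes were then called instead of 1.

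Cd14, the co-receptor for lipopolysaccharide, read 4.78, 4.88, 5.50 and 5.21 in controls at 12 h and 2.44, 3.76, 4.03 and 3.66 in controls at 24 h. All 4 values at 24 h lay below all 4 at 12 h. The change was -1.62 (SE 0.40, adjusted p = 0.00999), 3.08-fold lower. With AMH it read 4.15, 3.89, 5.34 and 5.22 at 12 h and 3.33, 4.04, 4.20 and 4.34 at 24 h, with overlapping ranges, and the change was -0.67 (SE 0.40, adjusted p = 0.331). The difference of the AMH effect between 24 h and 12 h was 0.95 for Cd14 (SE 0.39, adjusted p = 0.850), so that the arms were not shown to differ.

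In controls these were the 3 of 22 genes with groups that did not overlap in the lower direction, where 10.9% of all genes did. Cd14 was among them only because its 12 h arrays took it over the filter. In AMH-treated follicles Csf1r was the 1 such gene, where 7.65% of all genes did. The 3 genes carry distinct roles, a growth factor receptor, a chaperone of antigen presentation and a pattern-recognition receptor.

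**Figure D2:**
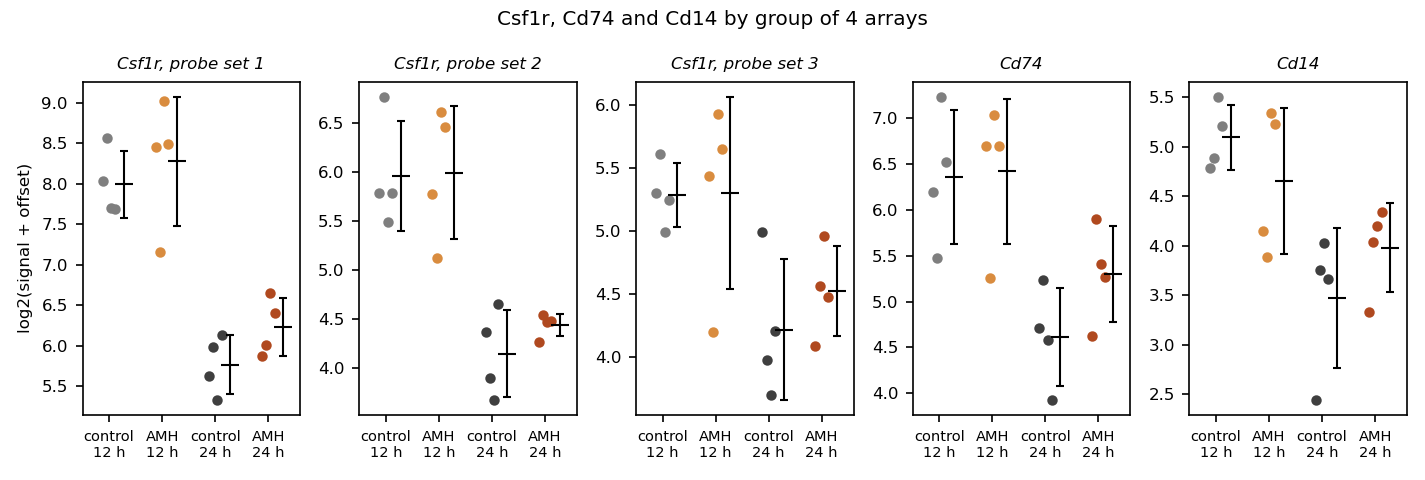
Points are single arrays on the log2(signal + offset) axis for the 3 probe sets of Csf1r and for Cd74 and Cd14, by group; bars are the mean and SD of 4 arrays. In the first panel the 12 h arrays lie at 7.15 to 9.03 and the 24 h arrays at 5.33 to 6.65.

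The chains of MHC class II themselves had lower means at 24 h without passing the test. In controls H2-Aa, the alpha chain of I-A, differed by -1.28 (SE 0.51, adjusted p = 0.0864) and H2-Ab1, its beta chain, by -1.36 (SE 0.87, adjusted p = 0.297). With AMH the differences were -0.87 (adjusted p = 0.322) and -0.21 (adjusted p = 0.919). H2-Eb1, under the filter and not tested, had group means of 4.10 and 4.22 at 12 h and 2.51 and 2.87 at 24 h. Single replicates carried much of this: without replicate 3 the control difference of H2-Aa was -0.56, and without replicate 4 that of H2-Ab1 was -0.08. With AMH, H2-Ab1 stood at 0.34 without replicate 2. Of the 4 genes of the class II group, 1 passed the threshold, Cd74 in controls.

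Among the Fc receptor and adapter genes, Fcgr3, a low-affinity activating IgG receptor, had the widest difference, -1.29 in controls (SE 0.49, adjusted p = 0.0754) and -0.77 with AMH (adjusted p = 0.373). Its inhibitory counterpart Fcgr2b differed by -0.31 and -0.28, with adjusted p of 0.760 and 0.830. Fcer1g, the signalling chain with which FCGR3 assembles, and Tyrobp (DAP12), an adapter of other myeloid receptors, differed by -0.10 each in controls and by 0.63 and 0.51 with AMH, none past the threshold. Of the C1q chains, C1qb differed by -0.18 and 0.13 and C1qc by -0.80 and 0.74 in controls and with AMH.

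None of the 3 effectors passed the threshold with time in either arm. Lgmn, an asparaginyl endopeptidase of the lysosome, differed by 0.70 in controls (SE 0.33, adjusted p = 0.152), the highest value among the 22 genes there. Ctss (cathepsin S, which degrades the invariant chain) differed by -0.32 in controls and 0.61 with AMH, and Lyz2 (lysozyme) by 0.11 and 1.02. Cd68, a glycoprotein of late endosomes, had the lowest spread within groups of the 22 genes (SD 0.29 over 16 arrays), with differences of -0.08 and 0.18. Mrc1, the mannose receptor, differed by -0.04 and 0.22.

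Of the pan-leukocyte genes, none passed the threshold with time in either arm. Cd53, a leukocyte tetraspanin, differed by -0.30 in controls and 0.52 with AMH, and Laptm5, a lysosomal membrane protein of blood cells, by -0.48 and 0.08. Lcp1 (L-plastin, an actin-bundling protein) differed by 0.05 and 0.30, Itgb2 (the beta-2 integrin chain) by 0.18 and -0.13, and Cd52, a small GPI-anchored glycoprotein, by 0.04 and 1.00. Whether these differences differ from that of Csf1r was not tested.

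Over the 22 genes the median difference with time was -0.30 in controls, with 5 of 22 above 0, and 0.18 with AMH, with 14 of 22 above 0. All genes had medians of -0.01 and -0.02. The control median rested on replicate 3, whose 12 h array had the highest mean over the 22 genes, 6.69; without it the median was 0.01. The AMH median was -0.33 without replicate 2. Centring each array on its own median moved the median of all genes in controls to -0.19, with 1873 of 2485 calls in the lower direction in place of 1118 of 2330, and 5 of the 22 genes were then called lower, Fcgr3 and H2-Aa in addition. Csf1r, Cd74 and Cd14 were below 0 with time in both arms under each scaling tried.

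The wider list of macrophage and myeloid genes had 1 of 20 genes higher in controls at 24 h, Maf at 1.07 (adjusted p = 0.0193), and 1 lower, Cyba, a subunit of the phagocyte oxidase, at -0.68 (adjusted p = 0.0380). Its median was -0.31 in controls and -0.07 with AMH. Other cell types moved over the same hours: 7 of 14 stromal and smooth muscle markers and 7 of 13 granulosa cell markers rose in controls, and the endothelial marker Emcn fell (-1.22, adjusted p = 0.0467), with 0 of 15 endothelial markers above 0. Of 13 surface epithelium markers 3 fell in controls (Krt8, Krt18 and Cdh1), where 9.19% of all genes fell. With AMH 2 of the 13 fell (Krt8 and Krt18), where 3.94% of all genes fell. Of 3 red blood cell markers over the filter, the beta-globin gene Hbb-b2 fell in both arms, with changes of -2.74 in controls (adjusted p = 0.00201) and -2.67 with AMH (adjusted p = 0.00486). The alpha-globin gene Hba-a2 rose with AMH by 0.44 (adjusted p = 0.0120) and stood at 0.24 in controls (adjusted p = 0.104), and Alas2 stood at 0.37 and 0.52, neither past the threshold, so that these markers did not move together. The part of these shifts in the changes of Csf1r, Cd74 and Cd14 was not tested.

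With AMH against control, 0 of the 22 genes passed the threshold at 24 h, where 0.0164% of all genes did. At an unadjusted p under 0.05, 4 of the 22 genes were higher with AMH and 0 lower, where 2.92% of all genes were higher at that level. The change was above 0 for 20 of the 22 genes, with a median of 0.59, while 51.6% of all genes were above 0, with a median of 0.01. All were read from the same 8 arrays, so that their signs are not independent.

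Laptm5 had the lowest adjusted p. It read 6.29, 6.48, 6.04 and 6.17 in the controls of pairs 1 to 4 at 24 h and 6.44, 8.12, 7.06 and 7.60 with AMH. Both ranges overlapped through pair 1, and AMH was higher in 4 of 4 pairs. The difference was 1.06 (SE 0.31, adjusted p = 0.813), 2.08-fold.

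Ctss read 6.16, 6.05, 5.61 and 6.45 in the controls and 6.44, 8.40, 6.95 and 7.72 with AMH. The AMH array of pair 1 lay within the control range and the other 3 above it. The difference was 1.31 (SE 0.42, adjusted p = 0.908), 2.48-fold, the widest of the 22 genes.

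Cd53 read 5.91, 6.00, 5.38 and 5.54 in the controls and 6.19, 7.37, 6.54 and 6.79 with AMH, and both ranges were apart. The difference was 1.01 (SE 0.34, adjusted p = 0.917), 2.02-fold. Mrc1 read 4.19, 4.08, 3.09 and 4.04 against 4.86, 4.79, 4.80 and 4.30, also apart, with a difference of 0.84 (SE 0.41, adjusted p = 1.00). Cd53 and Mrc1 were the 2 of 22 genes whose AMH arrays all lay above all control arrays at 24 h, where 1.46% of all genes did.

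Cd74 differed by 0.69 (SE 0.25, adjusted p = 0.967), with AMH higher in 3 of 4 pairs. Csf1r and Cd14 were higher in 4 of 4 pairs, by 0.46 (SE 0.37) and 0.51 (SE 0.28) on average, neither past the threshold. In all, 6 of the 22 genes were higher with AMH in 4 of 4 pairs, where 5.95% of all genes were: Cd53, Laptm5, Csf1r, Cd14, Mrc1 and Ctss. Mrc1 counts here only because its AMH arrays took it over the filter.

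The roles did not separate here. All 5 pan-leukocyte genes, all 5 surface receptors, both C1q chains and all 3 class II genes over the filter had differences above 0, with medians of 0.41, 0.46, 0.98 and 0.69. Of the Fc receptor and adapter genes 3 of 4 were above 0 (median 0.41), Fcgr2b at -0.09 being the exception. Of the 3 effectors Lgmn stood below 0, at -0.43 (SE 0.36). The 12 genes under the filter, with no test, ranged from -0.75 for Spi1 to 1.31 for Cd48, and over all 34 genes 28 were above 0 with a median of 0.43.

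The 4 pairs did not behave alike. The median over the 22 genes was -0.23 in pair 1, 0.68 in pair 2, 0.77 in pair 3 and 1.21 in pair 4, with 7, 21, 20 and 19 genes above 0. Without pair 1 the median was 0.98. The range within a gene was wide: H2-Ab1 differed by -2.82 in pair 1 and by 3.63 in pair 4, and Cd52 by -2.44 and 2.03. Over all genes, both arrays of pair 1 and both of pair 4 deviated in opposite directions from their group means (r of -0.44 and -0.29). The pairing at 24 h therefore rests on the labels, and so do these pair differences and the counts of pairs.

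**Figure D3:**
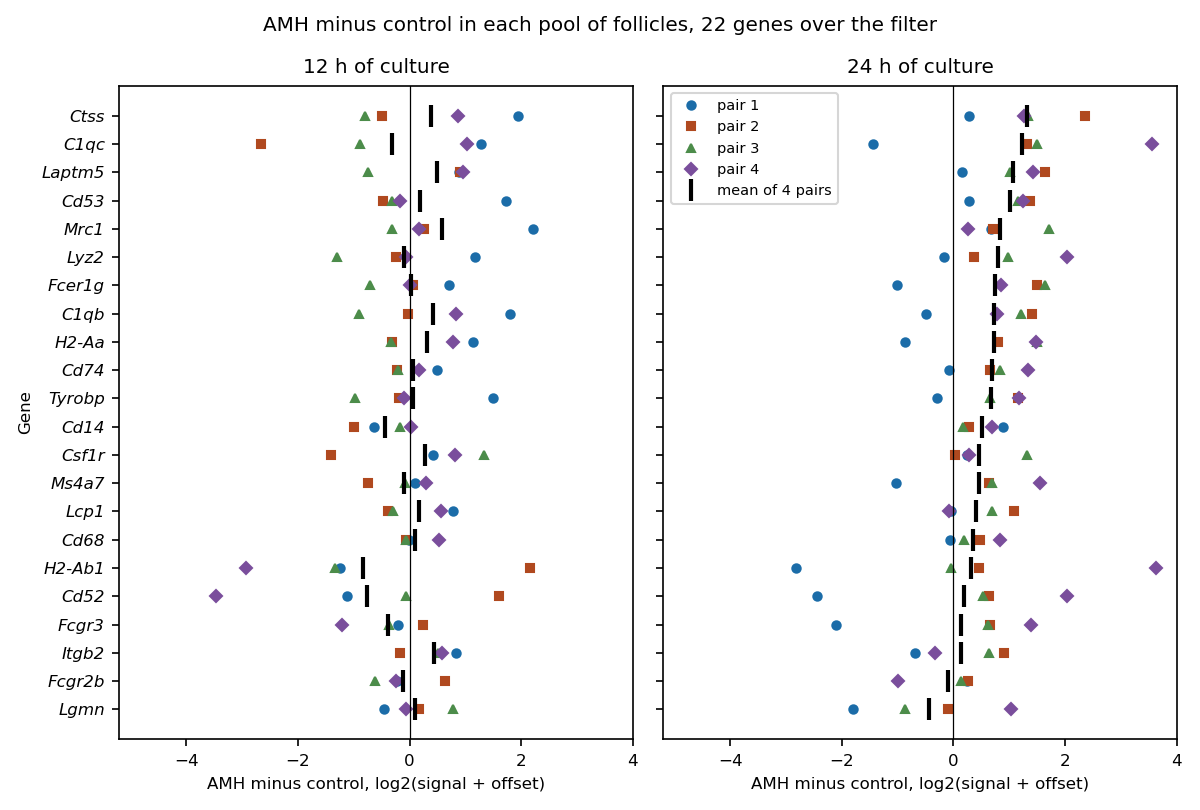
Each row is a gene over the filter and each symbol the AMH minus control difference of log2(signal + offset) in 1 of 4 pairs at 12 h (left) and 24 h (right); ticks are means of 4 pairs. At 24 h most symbols of pairs 2, 3 and 4 lie above 0, and those of pair 1 mostly below 0, with a median of -0.23.

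At 12 h 0 of the 22 genes passed the threshold and 0 of 22 had an unadjusted p under 0.05, where 0% and 6.47% of all genes did. The median was 0.08 with 14 of 22 above 0, and the medians of the 4 pairs were 0.74, -0.18, -0.33 and 0.17. None of the 22 genes was higher in 4 of 4 pairs, where 10.2% of all genes were. The values ran from -0.84 for H2-Ab1 to 0.58 for Mrc1. Without replicate 1 the median was -0.11.

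Over both times 0 of 22 passed the threshold (0% of all genes) and 4 had an unadjusted p under 0.05 (4.81% of all genes), all 4 with higher means with AMH. They were Laptm5 at 0.78 (SE 0.22, adjusted p = 0.839, higher in 7 of 8 pairs), Ctss at 0.84 (SE 0.30, 6 of 8 pairs), Mrc1 at 0.71 (SE 0.29, 7 of 8 pairs) and Cd53 at 0.60 (SE 0.24, 5 of 8 pairs). Of these, Mrc1 was tested through its AMH arrays, its control means being under the filter. The effect of AMH at 24 h minus that at 12 h passed the threshold for 0 of 22 genes (0% of all genes). Cd14 was the 1 gene with an unadjusted p under 0.05 there, where 5.64% of all genes had one. That difference was above 0 for 20 of 22 genes, with a median of 0.56, against 49.5% of all genes. Without replicate 1 that median was 1.15, without replicate 2 it was 0.33, and without replicate 3 it was 0.27 with 16 of 22 above 0.

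Markers of some other cell types lay mostly to one side with AMH at 24 h and others did not. Of the stromal and smooth muscle markers 13 of 14 were above 0 with a median of 0.41, and Dpt, a matrix protein gene, rose by 1.82 (adjusted p = 0.0480). Of the endothelial markers 14 of 15 were above 0 with a median of 0.30, and of the wider macrophage and myeloid list 16 of 20, with a median of 0.21. Oocyte markers were above 0 in 2 of 20, with a median of -0.15. By pair the mean of these 20 markers was far from balanced, with differences of 0.91, -0.18, 0.08 and -1.41 in pairs 1 to 4. Granulosa cell markers were above 0 in 8 of 13 (median 0.08), theca cell markers in 3 of 5 (median 0.02) and surface epithelium markers in 6 of 13 (median -0.10). The summed level of the wider myeloid list, as its mean per array, ranged from 5.71 to 6.19 in controls at 24 h and from 5.60 to 6.55 with AMH. The part of tissue makeup in the AMH differences was not tested.

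The 22 genes did not form one group over the arrays. With each group's mean removed, the correlation between 2 of the genes over 16 arrays had a median of 0.43 over 231 pairs, where the median over all pairs of the 12172 genes was 0.00. These correlations describe arrays that share their scaling and, in pairs, their pool of follicles. A set of 8 genes ran closely together, Cd53, Tyrobp, Ctss, C1qb, Fcer1g, Lyz2, Laptm5 and H2-Aa, with pairwise correlations of 0.78 to 0.97 and a median of 0.88. A set of 4 genes, Cd52, Lgmn, Fcgr3 and H2-Ab1, correlated among themselves at 0.60 to 0.82. Between both sets the correlations ran from -0.30 to 0.11. Both sets were drawn after the values were seen and are given as a description.

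The mean of the 8 genes was 5.53, 5.23, 7.72 and 6.19 in controls at 12 h and 6.89, 5.14, 6.96 and 6.58 with AMH at 12 h. At 24 h it was 6.18, 6.12, 5.30 and 5.74 in controls and 5.92, 7.45, 6.49 and 7.02 with AMH. Control 12 h replicate 3 was the highest array and AMH 12 h replicate 2 the lowest. Controls at 12 h alone spanned 5.23 to 7.72, close to the 5.14 to 7.72 of all 16 arrays.

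The mean of the 4 genes was 6.99, 7.00, 6.18 and 8.72 in controls at 12 h and 6.23, 8.04, 5.93 and 6.81 with AMH at 12 h. At 24 h it was 7.61, 7.06, 6.94 and 5.38 in controls and 5.32, 7.47, 7.00 and 7.39 with AMH. Its highest array was control 12 h replicate 4, and AMH 12 h replicate 2, lowest for the 8 genes, was its next highest.

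**Figure D4:**
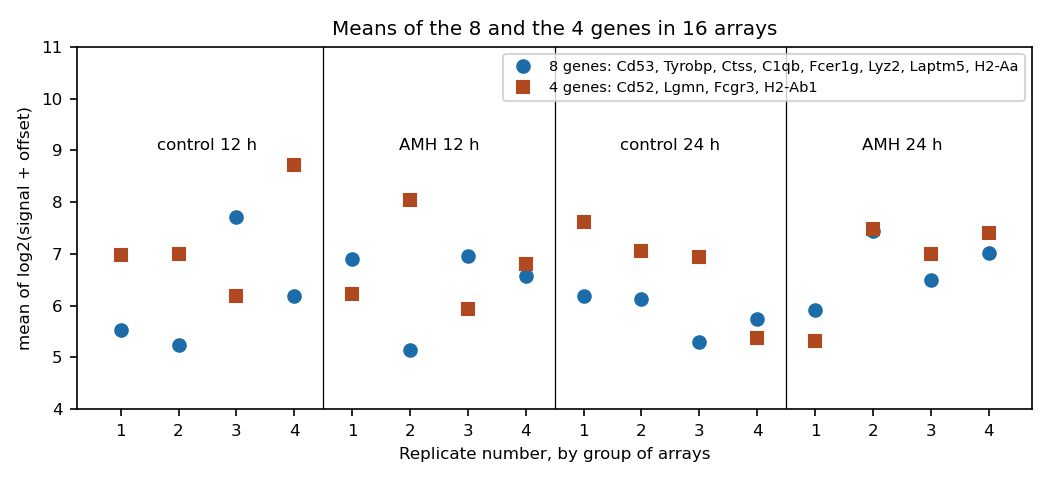
Each circle is the mean of log2(signal + offset) of 8 genes and each square that of 4 genes in one array, by group and replicate number. The circle is highest in control 12 h replicate 3 (7.72) and the square in control 12 h replicate 4 (8.72).

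The split ran through complexes. H2-Aa and H2-Ab1, the alpha and beta chains of the same I-A molecule, correlated at -0.18 over the 16 arrays. H2-Aa followed Cd74 at 0.78 and H2-Eb1 at 0.58, whereas H2-Ab1 stood at -0.06 and -0.39 to them. The 3 probe sets of H2-Ab1 correlated at 0.85 to 0.95 with each other, so that its course was the same on each. For H2-Aa, 2 of its 4 probe sets were compared and correlated at 0.37. In control 12 h replicate 3, H2-Aa read 6.42 and H2-Ab1 6.54, respectively the highest and the lowest value of its group; in replicate 4 they read 4.43 and 9.26. The chosen probe sets of both H2-Aa and H2-Ab1, like those of Laptm5, C1qb and Fcgr2b, have a suffix of sets that can also bind other transcripts. Fcgr3 parted in the same way from Fcer1g, its signalling chain, at 0.11, and followed H2-Ab1 at 0.82.

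Csf1r belonged to neither set. Its correlation with the other 21 genes had a median of 0.19, from -0.57 (with H2-Ab1) to 0.50. Its correlation with the mean of the other genes was 0.16, against 0.89 for Cd74, 0.89 for Ms4a7 and 0.88 each for Fcer1g and Tyrobp. The 3 probe sets of C1qb, which belonged to the 8 genes, correlated at 0.96 to 0.99, and 3 of the 5 probe sets of Laptm5 at 0.38 to 0.73. Of the genes under the filter, C1qa and Coro1a followed the mean of the 22 at 0.86 each, Spi1 at 0.53 and Cx3cr1 at -0.03.

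**Figure D5:**
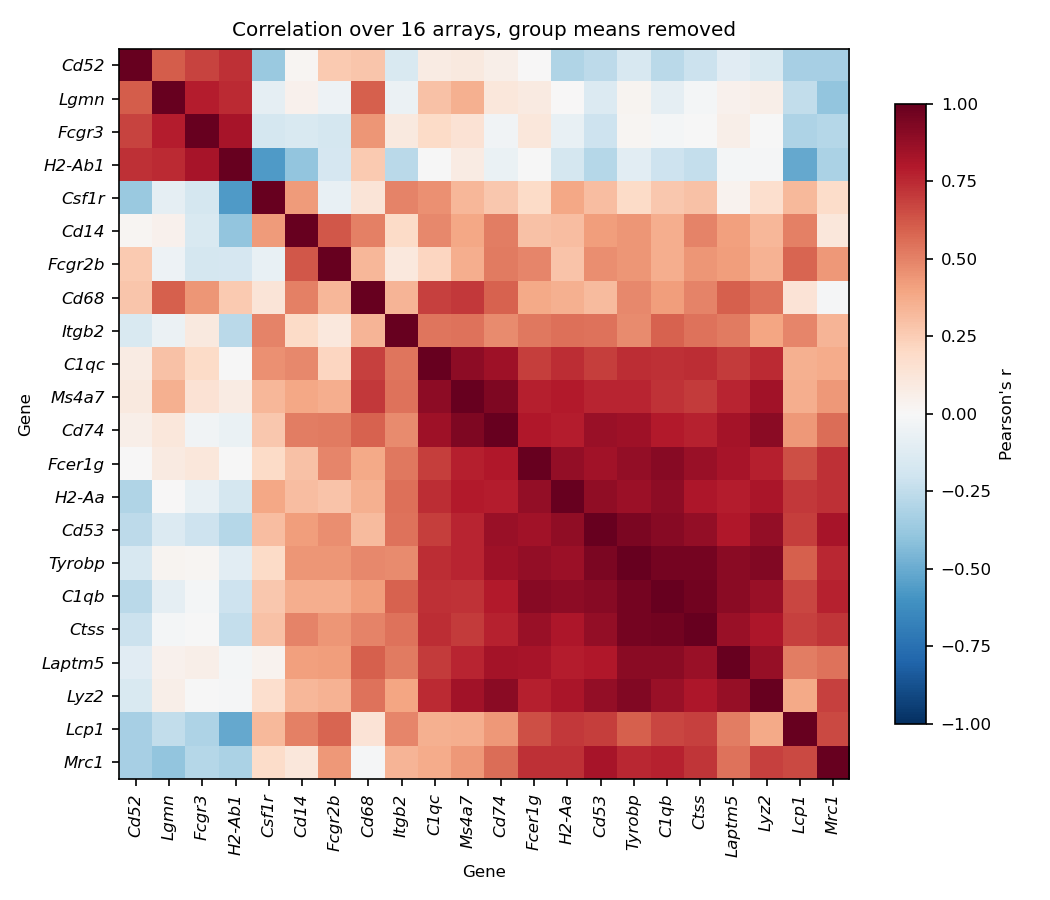
The matrix gives Pearson's r for each pair of the 22 genes over 16 arrays after the group means were removed, on a scale from -1 to 1. The block of 8 genes has r of 0.78 to 0.97, the block of Cd52, Lgmn, Fcgr3 and H2-Ab1 in the top left corner 0.60 to 0.82, and Csf1r has a median r of 0.19.

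The 10 genes most like the mean of the 22, of all other genes tested, ranged in correlation from 0.94 to 0.87. They were Pf4, Ccl9, S100a16, Slc11a1, Lyz1, Sptbn1, Stab1, Actn1, Cald1 and Clec4d. Several are themselves known from myeloid cells: Pf4 and Ccl9 are chemokines, Slc11a1 is a metal transporter of phagosomes, Lyz1 a lysozyme and Clec4d a lectin receptor. Lyz1 and Lyz2 are near-identical genes whose probe sets may read each other's transcripts.

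Other cell types moved with these sets over the same 16 arrays. The mean of the 22 genes correlated at 0.71 with the mean of 13 surface epithelium markers, 0.63 with 15 endothelial markers, 0.48 with 14 stromal markers and -0.59 with 13 granulosa cell markers. With the mean of the 20 genes of the wider macrophage and myeloid list it correlated at 0.92. The set of 8 genes correlated with that list at 0.88 and the set of 4 genes at 0.12. The set of 4 genes correlated at -0.83 with the mean of 20 oocyte markers, at -0.82 with that of 2 B cell markers, and at 0.79 with the neutrophil gene Camp, where the 8 genes stood at 0.07, 0.21 and 0.09. Camp was the 1 neutrophil marker over the filter, of 9 with a probe set. The part of tissue makeup in either course was not tested.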

How the data were processed

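Biotin-labelled cDNA from 16 RNA samples was read on an Affymetrix mouse array of 45101 probe sets, 64 of them controls. The deposited values are intensity signals on a linear scale; MAS5 is named in the submitters' processing notes with no version, and the values of each array have a trimmed mean (2% from each end) of 150.001. Scaling to one mean hides any change shared by most genes. Detection calls were not used here.

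Probe sets were named from the platform annotation (34945 with 1 symbol, 932 with several, 9160 with none), and each gene was read from its probe set with the highest mean. Signals were turned into log2(signal + 1.46). Genes brighter on average than the lowest 40% of probe sets were tested with limma 3.58.1 in R 4.3.3 (lmFit, eBayes with trend), with Benjamini-Hochberg adjustment over 12172 genes and the scripts tested on simulated data. AMH comparisons had the 8 pairs as a block, because the labels say that both arms came from one pool. As a check of this pairing over all genes, with group means taken out, both arrays of a pair had correlations of 0.30, 0.35, 0.56 and 0.21 (12 h) and of -0.44, 0.33, 0.20 and -0.29 (24 h). The check thus did not bear out the pairing in 24 h pairs 1 and 4, and the pairs were kept as labelled. The times were compared from 4 group means. The labels name separate pools for the experiments.

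All 34 genes of the list could be named whatever their values. Of other lists, not all genes past the threshold were named, and some were given only as counts. Of neighbours the 10 with the highest correlation were named. The genes and lists were chosen with earlier results of these data known. Alternatives changed the offset, filter, scaling, probe-set rule, moderation, block and replicates. Figures were drawn with matplotlib 3.10.9.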

Additional observations from a re-analysis of the deposited data

Results flagged for a closer look

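Of 140 groups of 4 arrays (35 measures in 4 groups), 5 held an array that stood apart from the others by Dixon's test of the gap over the range; chance gives about 1 in 20. H2-Aa in control follicles at 12 h was 6.42 in replicate 3, with the nearest array at 4.45. With AMH at 12 h, replicate 2 was low for Ctss, at 5.18 with the nearest array at 7.20, and for H2-Eb1, which is under the filter, at 1.92 with the nearest at 4.96. Mrc1 was low in control 24 h replicate 3, at 3.09 with the nearest array at 4.04, and in AMH 24 h replicate 4, at 4.30 with the nearest at 4.79. Mrc1 is one of the 2 genes whose groups were apart at 24 h, and both of these arrays lie on the lower side of their own group.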

How the results depend on the processing

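With the replicate number as a block, 4 genes fell with time in controls, Fcgr3 in addition, and 1 with AMH, where 10.5% and 4.83% of all genes fell. The labels do not say that 12 h and 24 h arrays of one number share a pool. Over all genes, the deviations of same-numbered arrays correlated at 0.13, -0.01, -0.19 and -0.41 in controls and at 0.07, 0.04, 0.25 and 0.23 with AMH. For the AMH comparisons, the fit with no replicate block also called 0 of 22 genes at each time. In controls over time, 1 gene was called with a filter at the 60th percentile, where 12 of the genes are tested and 10.8% of all genes fell, and 5 with median centring, where 15.4% of all genes fell. With AMH over time, leaving out a replicate gave 1 to 2 called genes; 1.94% of all genes fell without replicate 2. Csf1r passed in both arms under each alternative, and Cd14 passed in controls wherever it was tested. The Csf1r change lay between -2.45 and -1.70 in controls and between -2.35 and -1.46 with AMH. The AMH median at 24 h was 0.38 with an offset of 16. Fitted with the oocyte marker mean as a covariate, an alternative chosen after seeing the data, it was 0.57; with pairs 1 and 4 left out, likewise chosen afterwards, it was 0.76. Of the AMH differences at 24 h, 6 of 22 genes changed sign under at least 1 alternative, and at 12 h 15 of 22. The medians moved more than the calls: leaving out a replicate took the AMH median from 0.46 to 0.98 at 24 h and from -0.11 to 0.21 at 12 h. Low signals limit the 12 dim genes.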

Other observations

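The genes that ran most closely with Cd52, Lgmn, Fcgr3 and H2-Ab1 over the 16 arrays are given here beside those nearest to the other genes. Among all other genes tested, the 10 with the highest correlation, from 0.94 to 0.90, were Pygl, H2-Q10, Dubr, Ndufa4l2, Tradd, Slc16a3, Stc2, Enpp3, Sdc1 and Shmt2. Pygl encodes liver glycogen phosphorylase, Slc16a3 a lactate exporter, Ndufa4l2 a mitochondrial protein known from low oxygen, and Shmt2 a mitochondrial enzyme of one-carbon metabolism. H2-Q10 encodes an MHC class I molecule, Tradd an adapter of the TNF receptor, Enpp3 an ectonucleotidase and Sdc1 syndecan-1. No theme was tested for these lists. The nearest genes to the 8-gene set, from 0.95 to 0.89, were Clec4d, C5ar1, Ccl9, Coq10b, Lyz1, Serpinb6b, Cald1, Kirrel, Nr1d1 and Kifc3, of which C5ar1 is the receptor for the complement fragment C5a. Nearest to Csf1r, from 0.82 to 0.75, were Agbl3, Cpsf6, Larp1b, Rin3, Tmem87a, Crem, Thoc5, Lats1, Lnpk and Ccdc97. Both sets and these lists were drawn after the values were seen, over arrays that share scaling and pools, and are given as values.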
